A study of Sus scrofa with 12 samples.

Results

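The nuclear genes of oxidative phosphorylation code for the subunits of the respiratory chain and of ATP synthase. They were taken by symbol from the RefSeq annotation of the pig genome (Sscrofa11.1), as the NDUFA, NDUFB, NDUFC, NDUFS, NDUFV, UQCR, ATP5, COX4I, COX5, COX6, COX7 and COX8 families with SDHA, SDHB, SDHC, SDHD and CYC1. This gave 87 of the 28224 annotated genes, 70 by their symbol and 17 that carry only a locus number and were named by their annotated product. Complex I had 37 of them, complex II 4, complex III 9, complex IV 18 and complex V 15, and 4 relatives of subunits that belong to none of the sets were kept apart. The tissue was the longissimus dorsi (LD) of the loin, sequenced as RNA in 12 castrated Iberian males that grazed outdoors on grass and acorns. The 6 H pigs had high and the 6 L pigs low estimated breeding values for intramuscular fat (IMF), and their labelled IMF ran from 10.62 to 13.8% in H and from 1.7 to 2.28% in L. The mean of the L labels differs from the group mean in the study's methods, and the labels are given here as deposited. Siblings were not taken, and the labels tie no pig to its batch of grazing and slaughter. Each pig gave 1 library and is named here by its group and individual number, H1 to H6 and L1 to L6. The pigs were selected at the ends of a larger population and not randomised, so the group stands for all that differs between high and low breeding value.

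The respiratory chain sits in the inner mitochondrial membrane. Complex I takes electrons from NADH and complex II takes them from succinate, ubiquinone carries them to complex III and cytochrome c carries them on to complex IV, which reduces oxygen. Complexes I, III and IV pump protons, and complex V lets them flow back and makes ATP. A few subunits of complexes I, III, IV and V are coded by mitochondrial DNA, which is not analysed here, and the remainder come from the nucleus. Oxidative muscle fibres are rich in these proteins, and several subunits of complexes IV and V exist in tissue forms from separate genes.

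The members lay on 18 chromosomes. Their annotated exons were short, with a median of 843 bases against 3760 in all genes tested. Promoters are shown because known factors of mitochondrial gene expression bind short words that can be looked for there. In 300 bases around each annotated start, from 250 before it to 50 after, 4 words were searched on both strands. These were the core word of NRF1 (GCGCNTGCG), of the ETS factors with GABP (CCGGAAG), of YY1 (AAGATGGCG) and of ESRRA (TCAAGGTCA). The NRF1 and ETS words were the most frequent ones. The NRF1 word stood in 18 of 87 member promoters (20.7%) and in 11.9% of the promoters of all protein-coding genes tested. The ETS word stood in 23 (26.4%) against 15.6%, the YY1 word in 5 (5.75%) against 2.21% and the ESRRA word in 2 (2.3%) against 0.303%. At least 1 of the 4 words stood in 39 members (44.8%) against 26.4%. Among the complexes the NRF1 word was most frequent in complex III, with 4 of 9 promoters, and it stood in 0 of the 4 promoters of complex II. These are matches of letters in 1 window, with no test, and they show no binding.

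The promoters with most matches in complexes I, II, IV and V, for complex IV the more abundant of COX5B and COX7A2 with 3 matches each, are printed from the RefSeq sequence of Sscrofa11.1, each 5′ to 3′ on the strand of its gene and with the matched words in capitals. NDUFB4 (chr13:139730443-139730742, minus strand) holds 4 matches to the NRF1 word, of which 2 overlap on opposite strands. SDHD (chr9:39790404-39790703, plus strand) holds 2 ETS words, 1 YY1 word and 1 ESRRA word. COX5B (chr3:56632058-56632357, minus strand) holds 1 NRF1 word and 2 ETS words, and ATP5I (chr8:113477-113776, minus strand) holds 3 NRF1 words, 2 of them overlapping, and 1 ETS word.
NDUFB4: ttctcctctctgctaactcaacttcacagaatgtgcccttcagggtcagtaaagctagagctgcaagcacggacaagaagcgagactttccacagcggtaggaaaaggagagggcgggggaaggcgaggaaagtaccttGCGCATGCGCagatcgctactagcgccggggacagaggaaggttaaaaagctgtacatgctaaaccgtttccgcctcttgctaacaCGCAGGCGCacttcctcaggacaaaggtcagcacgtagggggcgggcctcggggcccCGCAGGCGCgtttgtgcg
SDHD: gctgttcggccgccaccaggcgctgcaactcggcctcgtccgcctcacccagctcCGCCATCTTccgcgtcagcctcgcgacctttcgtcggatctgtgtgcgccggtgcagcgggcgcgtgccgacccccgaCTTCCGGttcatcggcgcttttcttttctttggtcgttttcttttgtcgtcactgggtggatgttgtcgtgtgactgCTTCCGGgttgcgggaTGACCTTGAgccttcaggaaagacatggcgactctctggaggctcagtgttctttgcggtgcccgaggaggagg
COX5B: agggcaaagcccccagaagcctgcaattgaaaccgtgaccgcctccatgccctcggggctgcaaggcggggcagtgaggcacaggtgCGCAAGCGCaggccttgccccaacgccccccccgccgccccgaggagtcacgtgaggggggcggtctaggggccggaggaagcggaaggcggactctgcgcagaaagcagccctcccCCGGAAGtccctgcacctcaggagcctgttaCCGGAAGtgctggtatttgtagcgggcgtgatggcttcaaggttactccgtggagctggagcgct
ATP5I: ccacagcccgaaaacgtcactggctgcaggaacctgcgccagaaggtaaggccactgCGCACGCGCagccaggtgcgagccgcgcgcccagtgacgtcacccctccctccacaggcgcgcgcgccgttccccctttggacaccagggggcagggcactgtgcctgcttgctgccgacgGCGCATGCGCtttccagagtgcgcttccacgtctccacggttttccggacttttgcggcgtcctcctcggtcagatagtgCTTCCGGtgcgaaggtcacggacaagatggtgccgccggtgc

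Levels are FPKM, the fragments of a transcript divided by a measure of its length and by the mapped fragments of its library. They were summed over the transcripts of a gene and scaled between libraries by median ratios. Transcripts under 200 bases carried 98.6 to 99.5% of the deposited FPKM of a library. The length that FPKM divides by need not equal the assembled length, and its part in the values of short transcripts was not tested. Of the 87 members, 84 reached a mean of 0.5 FPKM in H or in L and were tested, among 12409 genes in all. COX6B2, COX7B2 and COX8C, described as testis forms of complex IV subunits, were listed at 0 in all 12 libraries. The tested members were abundant, with a median of 110 FPKM against 3.94 FPKM over all genes tested. The deposited coverage came to 9.88 to 17.6 gigabases per library, and H2 had the lowest. Transcripts that could be assigned to a gene carried 41.5 to 56.1% of it.

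The complexes differed in median level. The median over subunits was 234.7 FPKM in complex IV, 179 FPKM in complex V, 140 FPKM in complex III, 113 FPKM in complex II and 88.7 FPKM in complex I. The same order was seen within pigs. When the median of each complex was taken in each pig, complex V was above complex III, III above II and II above I in 12 of 12 pigs, by 1.34, 1.25 and 1.25 times. An exact sign-flip permutation test over the 12 pigs (two-sided) gave p = 0.000488 for each of these, the smallest it can give, and 0.000651 after adjustment over the 4 neighbouring pairs. The pairs were taken in the observed order, and the test measures only how the order repeats from pig to pig. It does not set the complexes against the spread of their subunits, which ran from 4.12 to 704 FPKM in complex IV. Complex IV was above V in 11 of 12 pigs by 1.13 times (exact permutation p = 0.0464, adjusted p = 0.0464). The medians of complex III include UQCR11, whose transcript was counted under an overlapping gene in most libraries. This can lower them, and the order without UQCR11 was not tested. In H2 and H3, where UQCR11 was listed, complex III had 286 and 120 FPKM and complex V 298 and 143 FPKM. Part of the order of the complexes also depends on the length by which FPKM divides. With coverage over the annotated exons in its place, only complex II above complex I kept an adjusted p under 0.05, at 1.46 times and in 12 of 12 pigs (exact permutation p = 0.000488, adjusted p = 0.00195). By that measure IV was above V in 7 of 12 pigs (exact permutation p = 0.744), V above III in 8 and III above II in 9.

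**Figure D1:**
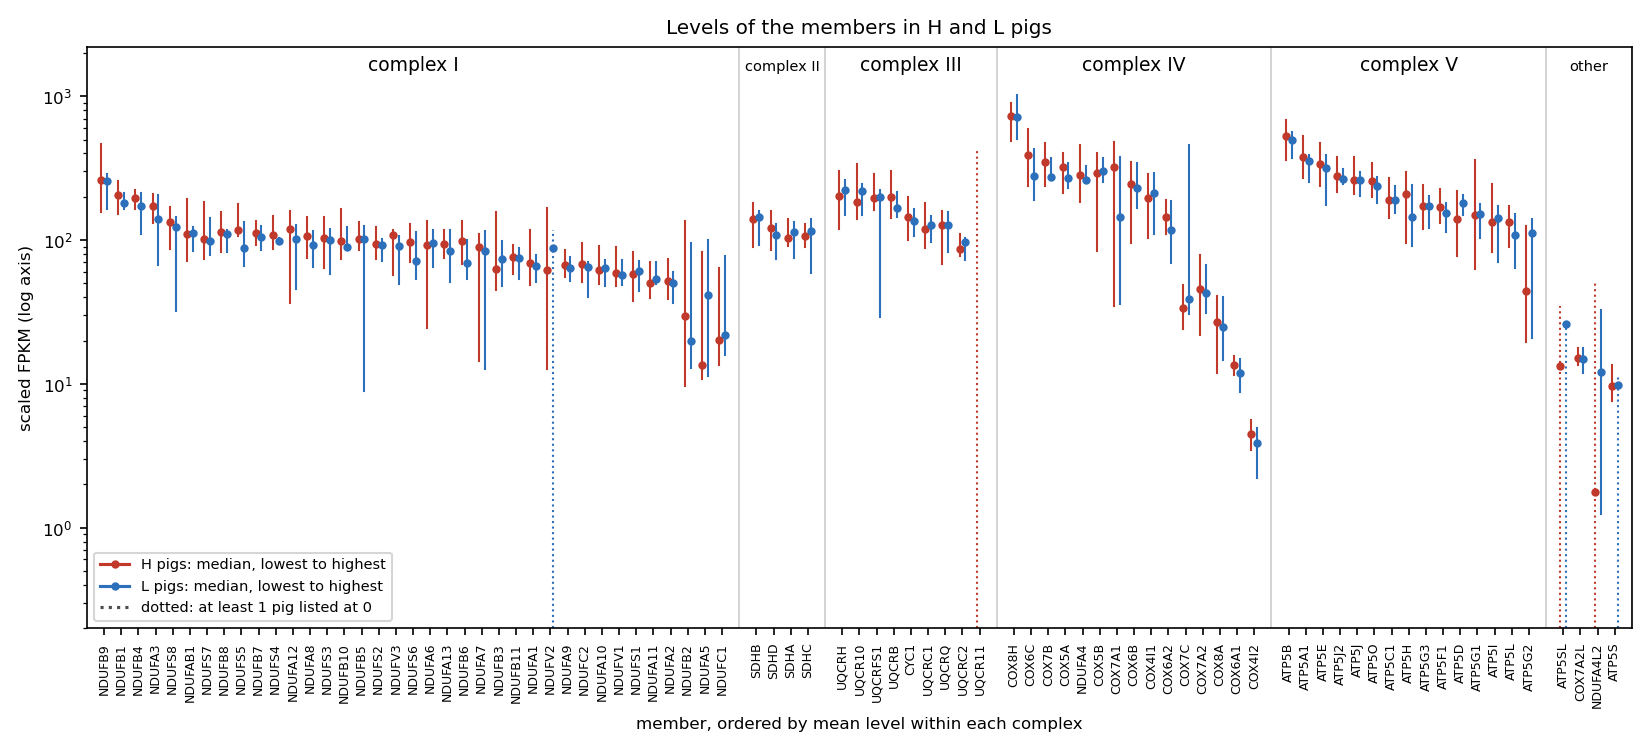
Level of each tested member in scaled FPKM on a log axis, ordered by mean within its complex, with points at the median of the 6 H (red) and 6 L (blue) pigs and lines from the lowest to the highest pig. COX8H stands highest at a mean of 704 FPKM and COX4I2 lowest of the subunits at 4.12 FPKM, and the H and L ranges overlap for every member.

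In complex I, the NADH dehydrogenase, mean levels ran from 31.1 FPKM for NDUFC1 to 262 FPKM for NDUFB9. NDUFB9, NDUFB1 and NDUFB4, accessory subunits of the membrane arm, were the highest. NDUFB9 had 156, 260 and 463 FPKM in the lowest, median and highest H pig, and 163, 258 and 287 FPKM in the L pigs. NDUFB1 ran from 153 over a median of 206.5 to 256 FPKM in H and from 164 over 182 to 211 FPKM in L. The 7 core subunits of nuclear origin, which carry the flavin, the iron-sulfur clusters and the site of ubiquinone reduction, had a median of 93.2 FPKM, and the 30 accessory subunits had 88.6 FPKM. The median of the core subunits was above that of the accessory ones in 9 of 12 pigs, but the mean log2 difference was -0.01 ± 0.17 (SD, n = 12; exact sign-flip permutation p = 0.898), within the spread of the pigs.

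Complex II, succinate dehydrogenase, is also an enzyme of the citrate cycle and is coded wholly by nuclear genes. Its 4 subunits were close to each other in level, from 109 FPKM for SDHC, a membrane anchor, to 138 FPKM for SDHB, the iron-sulfur subunit. SDHA, the flavoprotein, had 91.3, 103 and 141 FPKM in the lowest, median and highest H pig and 74.8, 114 and 134.5 FPKM in the L pigs. SDHB had 90.1, 140.5 and 182 FPKM in H and 92.6, 143.5 and 158 FPKM in L. The SDHC values were 89.4, 107 and 129 FPKM in H and 58.8, 116 and 141 FPKM in L. SDHD, the other anchor, had 85.0, 122 and 160 FPKM in H and 74.0, 108 and 129 FPKM in L. The ranges of H and L overlap in all of these, and L3 was the lowest L pig.

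Complex III, the cytochrome bc1 complex, was led by UQCRH (210 FPKM), UQCR10 (204 FPKM) and UQCRFS1 (193 FPKM), the Rieske iron-sulfur protein. CYC1, the cytochrome c1 subunit, had 99.4, 143.5 and 200.5 FPKM in the lowest, median and highest H pig and 107, 136 and 164 FPKM in the L pigs. UQCRC1 and UQCRC2, the large core proteins, had means of 125 and 91.3 FPKM. UQCR11 was listed in H2 (436 FPKM) and H3 (218.5 FPKM) and at 0 in the other 10 libraries. In each of those 10 a transcript over at least 80.4% of the UQCR11 exons was present, but shared more exonic bases with an overlapping annotated model of TCF3 on the same strand and was counted there. Its deposited FPKM was 140 to 277 in the 8 libraries where it was 354 to 440 bases long, and 19.1 and 25.4 in L4 and L5, where it was 2536 and 2209 bases long. No direction is read from the fold change of UQCR11.

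Complex IV, cytochrome c oxidase, held both the highest and the lowest subunit. COX8H, the heart and muscle form of subunit 8, had 487, 734 and 898 FPKM in the lowest, median and highest H pig and 507, 722 and 1021 FPKM in the L pigs. COX6C and COX7B followed with means of 347 and 318 FPKM. COX4I2, a form of subunit 4 known from lung and from its response to low oxygen, ran from 3.46 to 5.63 FPKM in H and from 2.23 to 4.93 FPKM in L. NDUFA4, once counted with complex I and now placed in complex IV, had a mean of 290 FPKM.

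Complex V, ATP synthase, was led by ATP5B and ATP5A1, the beta and alpha subunits of the catalytic head. ATP5B had 361, 526 and 680.5 FPKM in the lowest, median and highest H pig and 371, 498 and 564 FPKM in the L pigs. ATP5A1 had 270.1, 378 and 530 FPKM in H and 254, 352 and 391 FPKM in L. The 5 subunits of F1, the part that includes this head, had a median of 329.5 FPKM, and ATP5D, the delta subunit, was the lowest of them at 161.5 FPKM. The 3 genes of the membrane ring (ATP5G1, ATP5G2 and ATP5G3), which code for the same mature c subunit, had means of 160, 73.4 and 172.5 FPKM.

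Between H and L no member passed an adjusted p of 0.1 in limma with Benjamini-Hochberg adjustment over the 12409 genes tested, where 1 gene (0.00806%), not a member, did. At an unadjusted p under 0.05 there was 1 member of 84, higher in H, where 3.92% of all genes tested were past this level and higher in H and 3.36% were past it and lower. The values of H and L did not overlap for 0 of 84 members, against 0.556% of all genes. The median log2 fold change (H minus L) was 0.09 over the members and 0.00 over all genes tested. A positive fold change was found in 61 of 84 members (60 of 83 without UQCR11), where 50.5% of all genes had one. Of the 980 genes averaging 40 FPKM or more, which include members, 36.7% had one. Fold changes are differences of mean log2(FPKM + 0.5), a scale that understates the change of genes at low level. Below, a higher mean in H stands for a positive fold change, so for means of log2 values and not of FPKM. In a bulk sample, fewer cells or fibres of a type and less RNA per cell cannot be told apart.

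By complex, 31 of 37 subunits of complex I had a higher mean in H, with a median log2 fold change of 0.12. In complex V it was 12 of 15 with a median of 0.09, in complex IV 9 of 15 with 0.05, in complex II 3 of 4 with 0.01, and in complex III, with UQCR11 left out, 3 of 8 with -0.04. These medians are small beside the median standard error of a single subunit, which was 0.20 in complex I, 0.18 in complex II, 0.21 in complex III, 0.28 in complex IV and 0.19 in complex V. The count rested on H2. Without H2 41 of 84 members had a higher mean in H, the median of complex I fell to 0.02 and that of complex V to -0.02. Without L3 the count was 49 of 84, and without H3 it was 72 of 84. Quantile normalization gave 73 of 84 members, against 6274 of the 12409 genes tested. The median of complex III, with all 9 subunits, turned to 0.05 by quantile normalization, 0.03 by coverage over the annotated exons, 0.07 by relative fragments (FPKM times the assembled length) and 0.01 by annotated intron chains. Complex II went to 1 of 4 subunits higher in H by FPKM as deposited and without H4 and L3.

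**Figure D2:**
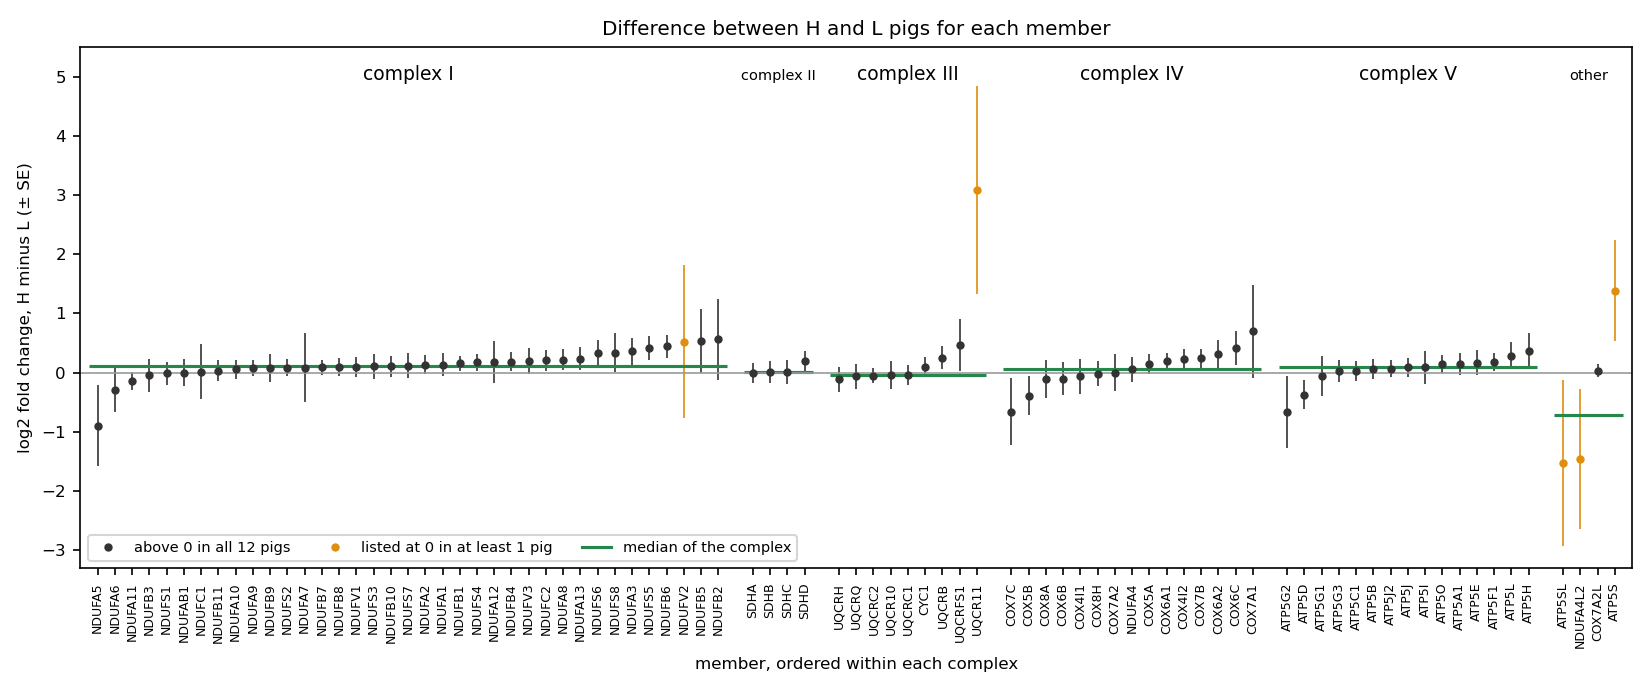
Log2 fold change (H minus L) of each tested member with its limma standard error, ordered within each complex, with a green line at the median of the complex. No member passed an adjusted p of 0.1, and the 5 members listed at 0 in at least 1 pig (orange) had the widest errors.

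NDUFB6, an accessory subunit of the membrane arm of complex I, was the member at an unadjusted p under 0.05. It had 68.5, 98.7 and 135 FPKM in the lowest, median and highest H pig and 53.3, 69.0 and 99.97 FPKM in the L pigs. H3 lay below the L median and L2 above the H median. The log2 fold change was 0.44 ± 0.19 (SE, n = 6 and 6; p = 0.0397, adjusted p = 0.681 in limma), and the exact permutation test (two-sided, 924 arrangements, smallest possible p = 0.00216) gave p = 0.0476. As relative fragments its log2 fold change was 0.19, and limma's unadjusted p was 0.166. NDUFS5, an accessory subunit with a twin cysteine motif, came next with 106, 117 and 179 FPKM in H and 65.5, 88.0 and 134 FPKM in L. Its log2 fold change was 0.42 ± 0.21 (SE, n = 6 and 6; adjusted p = 0.694 in limma; exact permutation p = 0.0823), and 0.20 as relative fragments (limma's unadjusted p = 0.158).

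In complex II the smallest p was that of SDHD, with a log2 fold change of 0.19 ± 0.17 (SE; adjusted p = 0.813 in limma), and SDHA, SDHB and SDHC had log2 fold changes of 0.00, 0.01 and 0.01. UQCRB, a subunit of the ubiquinone site of complex III, had 143, 199 and 301 FPKM in H and 144, 167 and 215 FPKM in L, with a log2 fold change of 0.25 ± 0.19 (SE; adjusted p = 0.786 in limma). CYC1 had a log2 fold change of 0.09 ± 0.17 (SE). In complex IV the smallest p values were those of COX6A1 (0.20 ± 0.13 (SE) on the log2 scale, adjusted p = 0.76 in limma) and COX6C (0.42 ± 0.28 (SE), adjusted p = 0.768). COX6C ran from 236 to 594.5 FPKM in H and from 190 to 428 FPKM in L. In complex V the smallest p values were those of ATP5D (-0.37 ± 0.25 (SE), adjusted p = 0.77 in limma) and ATP5L (0.29 ± 0.23 (SE), adjusted p = 0.797), a subunit of the membrane part. ATP5D had 77.6, 140 and 218 FPKM in H and 149, 180 and 207 FPKM in L, so that the H pigs lay on both sides of the L pigs. As relative fragments the log2 fold changes were smaller, 0.11 for COX6A1, 0.26 for COX6C, -0.07 for ATP5D and 0.08 for ATP5L.

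The members varied together from pig to pig more than they differed between groups. Of the 79 members above 0 in all libraries, 61 (77.2%) had their highest value in H2, where 11.8% of all genes above 0 in all libraries had theirs. The lowest value was in H3 for 29 members and in L3 for 29 others, together 73.4% of the 79. Over all genes above 0 in all libraries the lowest value was in H3 for 8.03% and in L3 for 16.7%, which made L3 the most frequent lowest library there too. As a mean over subunits, complex I in H2 stood 0.56 above the mean of the 12 pigs on the log2 scale, complex II 0.39, complex III 0.57, complex IV 0.40 and complex V 0.51. In H3 the same deviations were -0.44, -0.37, -0.44, -0.63 and -0.33, and in L3 they were -0.37, -0.64, -0.67, -0.25 and -0.38. As relative fragments complex III stood at -0.35 in L3 and -0.49 in H3. H2 was the highest and H3 or L3 the lowest pig for each of the 5 complexes.

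The spread between these pigs was larger than the distance between the groups. Over the 78 subunits above 0 in all libraries the mean deviation was 0.04 ± 0.32 (SD, n = 6) in H and -0.04 ± 0.20 (SD, n = 6) in L. The difference of 0.09 became -0.01 without H2, 0.02 without L3 and -0.08 without both. How often H2 led depended on the scaling. By FPKM as deposited it held the highest value for 28 of 79 members (35.4%), by quantile normalization for 53, by coverage over the annotated exons for 62 and by relative fragments for 66. Among the 850 other genes of at least 40 FPKM, H2 led in 3.18% as deposited and in 8.94% after scaling. H2 had the lowest summed coverage of the 12 libraries, but in coverage per unit of FPKM, which grows with the mapped fragments, it stood at 8.49 as a median over transcripts, above H5 (7.51) and L3 (8.40). The part of depth in its values was not tested.

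**Figure D3:**
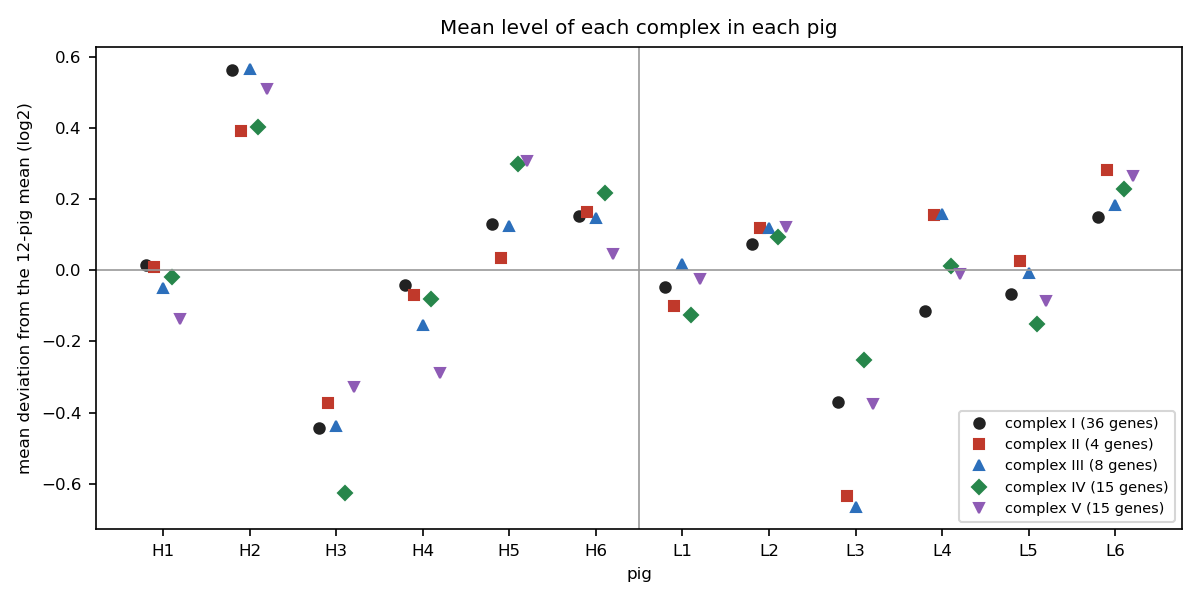
Mean deviation of the subunits of each complex from their mean over the 12 pigs, on the log2 scale, for each pig, over the subunits above 0 in all libraries. All 5 complexes are highest in H2 (0.39 to 0.57), and the lowest values are those of H3 and L3.

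Other mitochondrial genes showed part of this pattern. Of 54 assembly factors of the complexes listed, 46 were matched to the annotation and 43 tested, 29 had a higher mean in H and 0 passed the adjusted threshold of 0.1. COA5, an assembly factor of complex IV, had the smallest p, with 33.0 ± 10.2 FPKM in H and 22.7 ± 2.70 FPKM in L (SD, n = 6 and 6; log2 fold change 0.49 ± 0.18 (SE), adjusted p = 0.634 in limma). COX16 followed with a log2 fold change of 0.35 ± 0.20 (SE; adjusted p = 0.731). Of 22 mitochondrial carriers, channels and ubiquinone enzymes 13 had a higher mean in H, with COQ3 (0.66 ± 0.36 (SE)) and COQ6 (0.48 ± 0.29 (SE)), enzymes of ubiquinone synthesis, at the smallest p values. Of 14 regulators of mitochondrial genes 6 had a higher mean in H, and YY1 (-0.27 ± 0.16 (SE), adjusted p = 0.735 in limma) and ESRRG (0.55 ± 0.43 (SE)) had the smallest p values. Mean deviations of these lists were taken over genes above 0 in all libraries, 36 assembly factors, 22 carriers and 14 regulators. In H2 they were 0.42, 0.46 and 0.31 on the log2 scale, the highest of the 12 pigs in each list. For H3 the 3 values were -0.25, -0.21 and 0.06.

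Markers of fibre types and of other cells did not all follow the same pigs. Deviations of the fibre lists were averaged over genes above 0 in all libraries, 7 slow and 8 fast ones. The slow fibre list stood at 0.26 in H2, -0.12 in H3 and -0.53 in L3 on the log2 scale. Its highest pig was L4 at 0.84. The fast fibre list stood at -0.32 in H2, 0.21 in H3 and 0.23 in L3. Of 9 slow fibre genes tested 3 and of 8 fast fibre genes 6 had a positive log2 fold change, and 0 passed the threshold. Among those 3 slow genes, TNNI1 had a lower mean FPKM in H (718 against 812 in L). TNNC1, also among them, had 1509 FPKM in H and 1546 FPKM in L. The smallest p values were those of TNNT1 (-0.30 ± 0.26 (SE)) and MYOZ2 (-0.30 ± 0.32 (SE)) among slow genes and of MYL1 (0.24 ± 0.19 (SE)) and TNNI2 (-0.32 ± 0.34 (SE)) among fast genes. The summed fast list stood at 24440 to 50010 FPKM and the summed slow list at 5387 to 12290 FPKM over the libraries, while MYH7 was listed at 0 in H6 and L4 and TNNI1 in L3. The fast myosin genes MYH1, MYH2 and MYH4 were listed at 0 in all 12 libraries, so they add nothing to the summed fast list. Other genes of that list averaged up to 9378 FPKM. The cause of these zeros was not tested, and they are not read as absence of expression.

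Genes of other cells had positive log2 fold changes for nearly all list members, namely 9 of 9 adipocyte, 6 of 6 endothelial, 5 of 5 smooth muscle, 4 of 4 macrophage, 3 of 3 erythroid and 5 of 6 fibroblast genes tested, and 0 of them passed the adjusted threshold. Among the 5 fibroblast genes, COL1A1 had a log2 fold change of 0.01 but a lower mean FPKM in H (49.6 against 64.5 in L). At an unadjusted p under 0.05 in limma stood 1 adipocyte, 2 endothelial and 2 erythroid genes, and 0 smooth muscle, macrophage or fibroblast genes, against 903 of all 12409 genes. The adipocyte one was CIDEC, a lipid droplet protein, with a log2 fold change of 1.23 ± 0.37 (SE; adjusted p = 0.573). The erythroid ones were AHSP (1.28 ± 0.41 (SE), listed at 0 in 6 libraries) and HBB (0.96 ± 0.31 (SE)). The endothelial ones were TEK (0.31 ± 0.11 (SE)) and KDR (0.38 ± 0.17 (SE)). The summed adipocyte list ran from 130 to 227 FPKM in H and from 97.9 to 149 FPKM in L. The endothelial list was highest in H2 (0.55) and lowest in L3 (-0.62), and the adipocyte list was highest in H3 (0.92) on the same scale of deviations. These deviations cover the 6 endothelial and 6 adipocyte genes above 0 in all libraries, so not CIDEC, CIDEA and LEP. The summed endothelial list ran from 52.9 to 120.5 FPKM in H and from 36.4 to 97.8 FPKM in L, and the summed macrophage list from 10.1 to 16.0 FPKM in H and from 5.82 to 15.7 FPKM in L. Their part in the levels of the members was not tested.

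For tissue forms of a subunit, the log2 ratio of the FPKM of 2 genes (each + 0.5) was taken in each pig and 8 such ratios were compared between groups by the exact permutation test. The muscle form COX6A2 was above the general form COX6A1 in 12 of 12 pigs, by 5.56 to 18.5 times. COX6A2 had 110 to 189 FPKM in H and 69.4 to 187 FPKM in L, and COX6A1 had 11.5 to 15.7 FPKM in H and 8.78 to 14.8 FPKM in L. The log2 ratio was 3.38 ± 0.32 in H and 3.27 ± 0.62 in L (SD, n = 6 and 6; exact permutation p = 0.699). COX8H was above COX8A, the general form of subunit 8, in 12 of 12 pigs by 13.0 to 65.1 times, with a log2 ratio of 4.82 ± 0.81 in H and 4.72 ± 0.45 in L (SD; exact permutation p = 0.825). The size of both ratios depended on the measure. As relative fragments, which are not per length, the log2 ratio ran from 3.74 to 5.36 for COX6A2 and from 3.10 to 4.32 for COX8H.

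COX7A1, the muscle form of subunit 7A, was above COX7A2 in 10 of 12 pigs, with a log2 ratio of 2.17 ± 1.02 in H and 1.47 ± 1.68 in L (SD, n = 6 and 6; exact permutation p = 0.39). Its FPKM moved with the length of the assembled transcript, and as relative fragments the ratio was above 0 in all pigs, from 1.74 to 2.82, with a difference between groups of 0.05 (exact permutation p = 0.777). COX4I2 was below COX4I1 in all pigs, with a log2 ratio of -5.21 ± 0.59 in H and -5.50 ± 0.69 in L (SD; exact permutation p = 0.444). NDUFA4L2, a relative of NDUFA4 known to be induced by low oxygen, had log2 ratios of -6.73 ± 2.52 in H and -5.22 ± 1.90 in L (SD; exact permutation p = 0.271). It was listed at 0 in H3 and H6 and at 22.1 to 51.5 FPKM in H4, L1, L3 and L6. By FPKM it lay below NDUFA4 in all 12 pigs, but as relative fragments it lay above in L3 and L6 and below in 10, with a difference between groups of -2.69 (exact permutation p = 0.149).

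The genes of the c ring gave log2 ratios to ATP5G3 of -0.24 ± 0.58 in H and -0.16 ± 0.11 in L for ATP5G1 (SD, n = 6 and 6; exact permutation p = 0.76), and of -1.93 ± 0.96 and -1.23 ± 1.31 for ATP5G2 (exact permutation p = 0.273). As relative fragments, a measure added after the data were seen, the ATP5G1 ratio was 0.12 in H and -0.11 in L (difference 0.23, exact permutation p = 0.00433, adjusted p = 0.0346 over the 8 ratios). Since it differs in sign from the FPKM value and lies at 0.06 by coverage over annotated exons (exact permutation p = 0.719), no direction is read from it. An annotated copy similar to ATP5G1 was listed in H2, H5 and L2 at 187, 580 and 351 FPKM and at 0 in the other libraries, and reads that fit both genes could be counted at either. ATPIF1, the natural inhibitor of ATP synthase, stood to ATP5B at a log2 ratio of -1.33 ± 0.13 in H and -1.34 ± 0.18 in L (SD; exact permutation p = 0.944). As relative fragments the means of this ratio were -3.27 in H and -3.22 in L. After adjustment over the 8 ratios of FPKM no p was under 0.05.

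**Figure D4:**
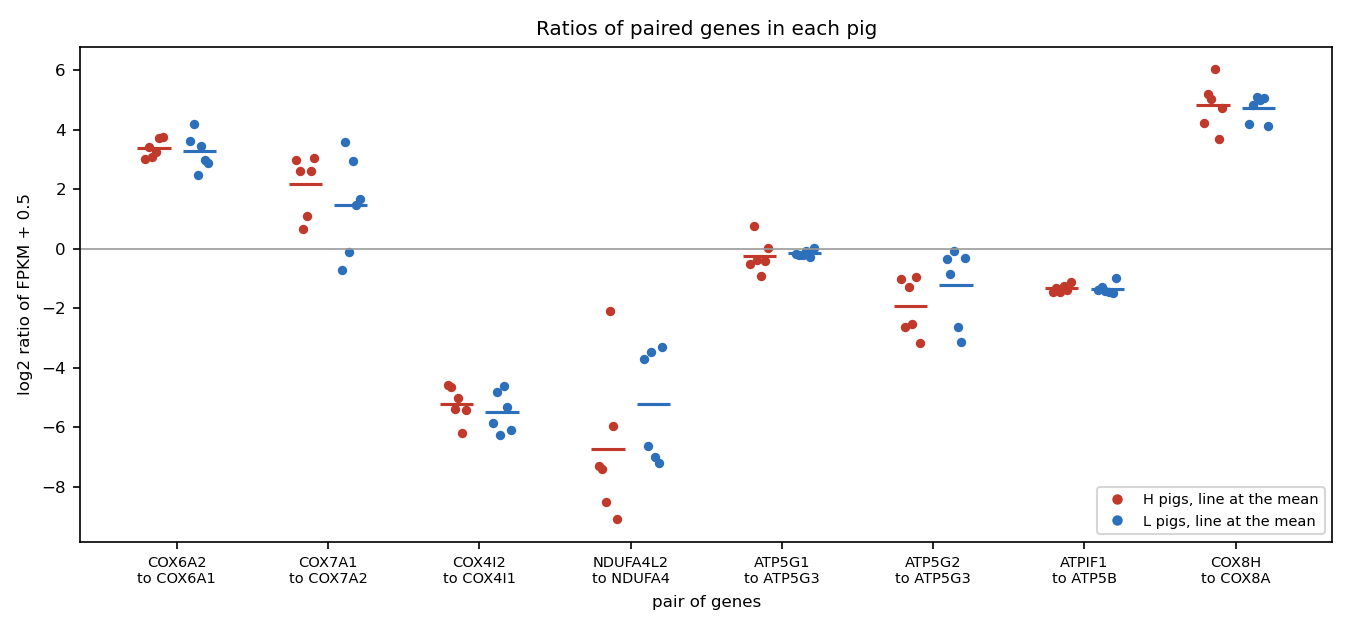
Log2 ratio of FPKM + 0.5 between paired genes in each of the 6 H (red) and 6 L (blue) pigs, with a line at the group mean. COX6A2 and COX8H lie above their general forms in all 12 pigs, COX4I2 and NDUFA4L2 lie below their partners in all 12 by FPKM (NDUFA4L2 in 10 as relative fragments), and H and L overlap in every pair.

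Several members changed level between single pigs by far more than their neighbours in the same complex. Of the 79 members above 0 in all libraries, 14 (17.7%) had a highest FPKM at least 4 times the lowest, where 21.9% of the 10442 such genes did. Most of these jumps went with the length of the transcript that Cufflinks assembled. For ATP5G1 the lengths lay closer, at 557 bases in H2 and 621 or more elsewhere. H2 was highest for it as relative fragments too (204 against at most 161). COX5B had 995 bases in H3 and at most 884 elsewhere, and H3 was also its lowest library as relative fragments (81.1 against at least 132). COX7C, a small subunit of complex IV, had 24.1 to 48.9 FPKM in 11 libraries with leading transcripts of 3672 to 5773 bases and 459 FPKM in L3 with one of 366 bases. NDUFB5, of the membrane arm of complex I, had 84.6 to 134 FPKM in 11 libraries with transcripts of 540 to 660 bases and 8.96 FPKM in L3 with one of 10272 bases.

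UQCRFS1 likewise had 162 to 286 FPKM in 11 libraries and 29.4 FPKM in L3, where its transcript was 6685 bases long and not 981 to 1035 bases. NDUFB2 had 96.1 to 136 FPKM in H2, H5 and L3 with transcripts of 364 to 427 bases and 9.62 to 32.9 FPKM in the other 9 libraries with 1757 to 3394 bases. NDUFA5, of the arm of complex I that reaches into the matrix, had 67.7 to 100.4 FPKM in H4, L1, L3 and L6 and 10.9 to 15.2 FPKM in the other 8, at 330 to 368 against 5298 to 6862 bases. COX7A1 had 34.8 to 39.9 FPKM in H3, L1 and L3 with transcripts of 2500 to 2762 bases, and 96.9 to 481 FPKM in the other 9 with 300 to 778 bases. In all 6 of these genes the long transcripts had the low FPKM. FPKM divides by length and the 6 were picked by their range of FPKM, so this is in part given by the measure.

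Expressed as relative fragments the jumps mostly went away. By that measure 1 of 79 members (1.27%), NDUFA5, had a highest value at least 4 times the lowest, against 16.1% of the 10442 genes. The highest COX7C value was 2.08 times the lowest as relative fragments and 19.0 times as FPKM. For NDUFB5 the 2 values were 1.90 and 14.9, for NDUFB2 1.80 and 14.2, for COX7A1 2.49 and 13.8, and for UQCRFS1 1.87 and 9.73. A long transcript can also take in fragments of neighbouring exons, which this measure then counts. With it 65 of 84 members (64 of 83 without UQCR11) had a higher mean in H, against 6403 of the 12625 genes tested by that measure. Of the 84 members 0 had an unadjusted p under 0.05 in limma, against 1323 of those 12625 genes.

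**Figure D5:**
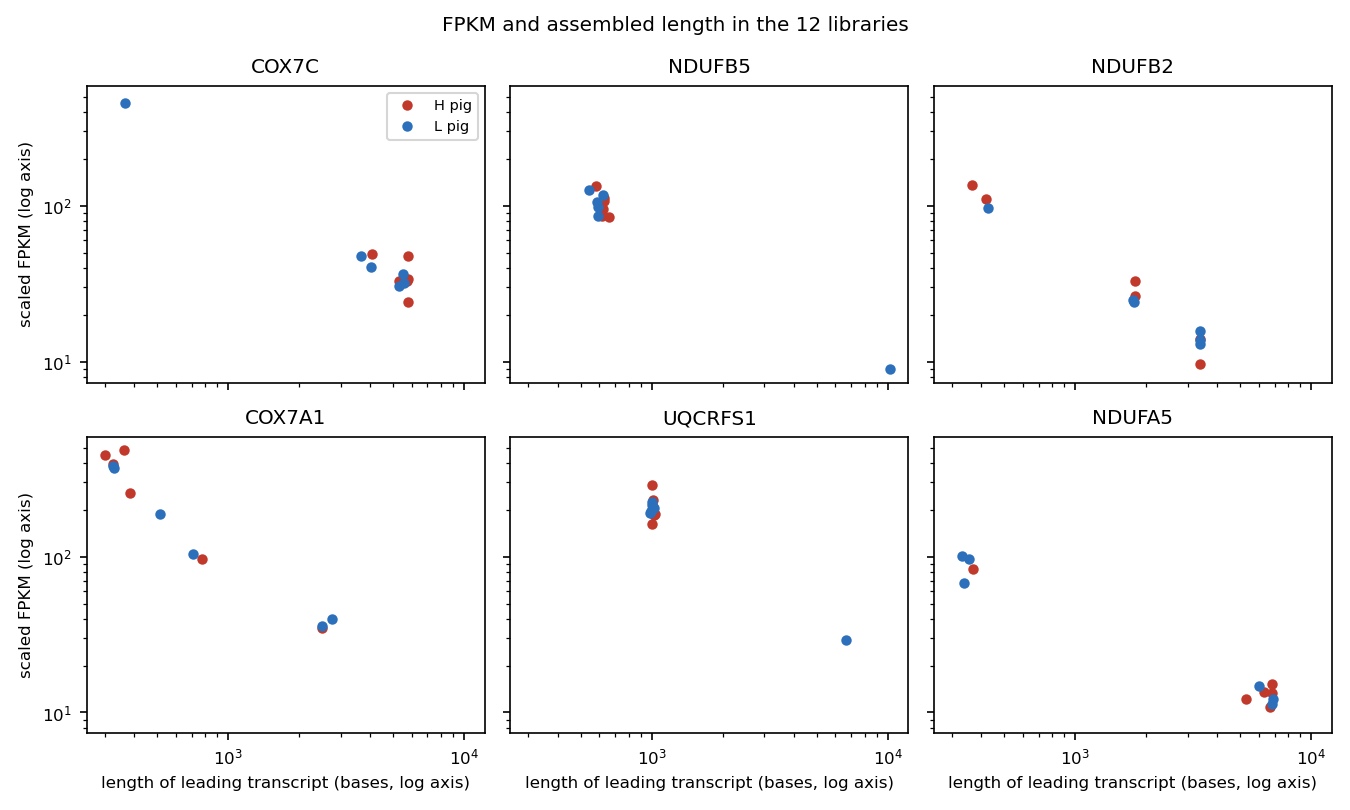
Scaled FPKM against the length of the leading assembled transcript, both on log axes, for the 6 members with the largest ratio of highest to lowest FPKM, 1 point per library (H red, L blue). In each of the 6, the libraries with long transcripts have the low FPKM, as for COX7C with 459 FPKM at 366 bases in L3 and at most 48.9 FPKM at 3672 bases or more elsewhere. FPKM divides by length, so this is in part given by the measure.

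A few members were listed at 0 in some libraries or stood outside the complexes. NDUFV2, a core subunit of complex I, was listed at 0 in L4, where a transcript of 15889 bases that spans all its exons was counted for its neighbour ANKRD12, and at 12.6 to 167 FPKM elsewhere. ATP5SL, now known as an assembly factor of complex I, was listed at 0 in H3, H6 and L1, where the leading transcript, over at least 72.3% of its exons, was counted for B3GNT8, and at 0.789 FPKM in H2. In the other 8 libraries it had 19.9 to 34.7 FPKM. ATP5S, coupling factor B, was listed at 0 in L3 and L6 and at 7.64 to 13.4 FPKM in the other 10. COX7A2L, a relative of COX7A2 that takes part in joining complexes III and IV, was the steadiest member, with 15.3 ± 1.41 FPKM in H and 15.01 ± 1.97 FPKM in L (SD, n = 6 and 6; log2 fold change 0.03 ± 0.11 (SE)).

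The 65 members that stayed above 0 and within a 4-fold range showed the group comparison without the jumps. Of these, 50 had a higher mean in H, with a median log2 fold change of 0.09, from -0.37 to 0.44. As a mean over the 65, the deviation was 0.05 ± 0.28 in H and -0.05 ± 0.20 in L (SD, n = 6 and 6) on the log2 scale. Without H2 the difference of 0.11 became 0.02 and without L3 it became 0.03. Most of the members had a log2 standard error near 0.2, so that a difference of that size was not detectable with 6 pigs per group.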

How the data were processed

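Per the submitters' processing notes and the methods, the authors checked reads with FastQC, removed adapters with Trim Galore, aligned to Sscrofa11.1 by TopHat2 2.1.0 and ran Cufflinks 2.2.1 on 1 paired-end library per pig. Deposited FPKM and coverage are given for each transcript assembled in a library, with its exons and no gene name, and are not scaled between libraries. The authors' own test between groups works on alignments and was not used. Here transcripts on chromosomes went to the RefSeq gene (the authors used Ensembl) of the same strand with most shared exonic bases, unstranded ones to a gene covering at least 50% of them. FPKM was summed per gene and scaled by median ratios over the 10470 genes above 0 in all libraries. A gene with no transcript in a library was listed at 0.

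Genes reaching a mean of 0.5 FPKM in either group entered limma 3.58.1 (R 4.3.3) as log2(FPKM + 0.5), H against L, two-sided, the variance following a trend with level. The Benjamini-Hochberg method adjusted p over all genes tested, with 0.1 as threshold. The fit was tested on simulated data. Exact permutation tests used all 924 arrangements of 6 against 6 pigs, or all sign changes over 12 pigs. Tables were made with Python 3.11.15. Alternatives were other pseudocounts, filters and normalizations, annotated intron chains alone, no transcripts under 200 bases, coverage over annotated exons, no trend, a replicate block, each pig left out and the fit without H4 and L3, which stood apart in earlier results. Relative fragments (FPKM times assembled length), members by symbol alone, counts without UQCR11 and the pair of COX8H and COX8A were added after the data were seen. No batch could be modelled, since the labels tie no pig to one, and FPKM keeps no read numbers, so no counting interval is given.

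The members and gene lists were chosen with earlier results of these data known. Of the 57 members named or followed through the alternatives, 42 follow a rule: an unadjusted p under 0.05, in each complex the 3 highest, the lowest and the 2 of smallest p, paired genes, SDHA to SDHD and CYC1, members listed at 0, and the 5 with the largest spread. The other 15, namely those whose FPKM moved with transcript length, COX5A, COX7A2L, ATP5C1, UQCRC1, UQCRC2 and UQCRQ, were chosen after their values were seen. In each related list and fibre list the 2 genes of smallest p were named.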

Additional observations from a re-analysis of the deposited data

Results flagged for a closer look

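Dixon's test at 95% for groups of 6 pigs was run on 118 groups, of which about 1 in 20 is marked by chance, and it marked 16. L3 stood apart as the lowest L pig for ATP5G1 (104 FPKM), NDUFB9 (163 FPKM), NDUFB5 (8.96 FPKM), UQCRFS1 (29.4 FPKM) and the mean level of complex III (-0.67 on the log2 scale by FPKM and -0.35 as relative fragments). L3 was the highest L pig for COX7C (459 FPKM) and NDUFB2 (96.1 FPKM). In L6 COX7B (370 FPKM) and NDUFC1 (77.6 FPKM) stood above the other L pigs, in L4 NDUFS8 stood below them (32.3 FPKM), and ATP5SL was listed at 0.0 in L1. In the H group NDUFS5 was high in H2 (179 FPKM), NDUFA4L2 and NDUFA5 were high in H4 (51.5 and 82.7 FPKM), and NDUFA12 and NDUFA7 were low in H3 (36.4 and 14.4 FPKM).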

How the results depend on the processing

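No member passed the adjusted threshold of 0.1 in any of the 25 alternative settings run over all genes. The number of members at an unadjusted p under 0.05, 1 as reported, was 3 with quantile normalization, 0 without H4 and L3 and 0 as relative fragments, and ran from 0 to 2 with each pig left out. Over all genes tested it was 903 of 12409 as reported and 777 of 12409 with quantile normalization. It was 740 of 12365 without H4 and L3 and 1323 of 12625 as relative fragments. With each pig left out it ran from 768 of 12413 (without H2) to 999 of 12415 (without L5). The number of all genes called, 1 as reported, was 0 with a minimum of 1 FPKM, 2 with no variance trend and 3 as relative fragments, and ran from 1 to 3 with each pig left out. Members with a higher mean in H numbered 41 to 72 of 84 with each pig left out, lowest without H2 and highest without H3. Leaving out each pig moved the median log2 fold change of complex I from 0.02 to 0.24, of complex II from -0.11 to 0.09, of complex III from -0.11 to 0.10, of complex IV from 0.02 to 0.18 and of complex V from -0.02 to 0.16. The ATP5G1 to ATP5G3 ratio turned from -0.08 to 0.23 as relative fragments. With annotated intron chains alone 9 of 50 named members moved by more than their within-group SD, and the cause was not tested.

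The individual numbers 1 to 6 of the labels occur in both groups, and nothing says that they mark a shared litter, batch or day. Deviations of same-numbered pigs correlated at -0.08 to 0.06 over the genes tested. With the number as a replicate block 0 genes in all and 0 members were called. By that fit 1 of 84 members had an unadjusted p under 0.05, against 884 of the 12409 genes tested. FPKM holds no counts, and genes that overlap or have near-identical copies can be split between models.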
